A study of Rattus norvegicus with 96 samples.

Results

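The adenylyl cyclases are the enzymes that make cyclic AMP, and 7 of their genes, Adcy1, Adcy2, Adcy3, Adcy5, Adcy6, Adcy8 and Adcy9, were looked up in expression arrays of the rat central amygdala. A probe set, the group of short probes by which the array reads 1 transcript, was taken when its annotation named exactly 1 of these symbols. Of the 7 genes, 6 had such a probe set, with 8 probe sets among the 31042 of the array and 6 genes among the 14217 with a single-symbol probe set. Adcy5 and Adcy6 had 2 probe sets each, the other 4 genes 1 each, and Adcy1 was not analysed here. Samples came from the central amygdaloid nucleus, a forebrain nucleus engaged in fear and stress, of rats of 5 pairs of lines that were selectively bred for drinking much or little alcohol. The preferring lines were HAD1 (9 arrays), HAD2 (10), P (10), AA (10) and sP (8), and their non-preferring partners were LAD1 (10), LAD2 (10), NP (10), ANA (10) and sNP (9), which makes 96 arrays with 1 animal each per their titles. No agent, genotype or allele is named for any line in the labels, nor are sex, age or exposure to alcohol. Because the animals of a line are related, p-values below refer to the spread within these lines, not to other lines bred the same way.

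Adenylyl cyclases sit in the cell membrane and turn ATP into cyclic AMP when the stimulatory G protein alpha subunit binds them. The family members differ in what else they listen to. Adcy1 and Adcy8 are switched on by calcium and calmodulin, Adcy2 is further raised by G protein beta-gamma subunits, Adcy5 and Adcy6 are held down by inhibitory G proteins and by calcium, and Adcy9 is nearly insensitive to the plant compound forskolin that activates the others. Cyclic AMP then acts through protein kinase A, through exchange factors and on the transcription factor CREB.

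All values are log2 RMA values, in which a difference of 1 is a doubling. A probe set's level is compared only with itself, apart from ranks by brightness, since levels of different probe sets are not on 1 scale. Median values per array lay between 7.78 and 8.03. The log2 ratio of the 3' to the 5' control probe set of GAPDH, a sign of RNA quality, averaged 3.33 to 4.09 in the HAD and LAD lines and 0.20 to 0.43 in the other lines, so differences were taken within line pairs. An array was placed between the lines of its pair by the probe sets that best separated its fellows, without the adenylyl cyclase probe sets, and 14 arrays lay with the other line on both odd and even chromosomes: HAD1 28, LAD1 37, P 1, P 9, NP 1, NP 9, AA 15, AA 17, AA 19, ANA 16, sP 2, sP 9, sNP 8 and sNP 9, and 0 of 20 in HAD2 and LAD2. LAD1 36 carries LAD1 in its title and HAD1 in its source name and was counted as LAD1, on whose side it lay, and sP 2 and sNP 2 were nearly identical, with an SD of their difference of 0.09. Of 13 markers of central amygdala neurons 11 were measured, and their mean level per array was 9.28 to 11.46. Tac2 and Dlx6 were not analysed here.

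Adcy9 was the 1 member that passed the test in a line pair. The array reads it through a single probe set, and the gene lies on chromosome 10. Its RefSeq promoter window of 300 bases (GRCr8, chr10:11645595-11645894, plus strand) is shown because Adcy9 carries the difference described next. The capitals mark the letters TGACG, the core of the cyclic AMP response element that CREB-type factors bind, at position -60 from the annotated start.
Adcy9 promoter: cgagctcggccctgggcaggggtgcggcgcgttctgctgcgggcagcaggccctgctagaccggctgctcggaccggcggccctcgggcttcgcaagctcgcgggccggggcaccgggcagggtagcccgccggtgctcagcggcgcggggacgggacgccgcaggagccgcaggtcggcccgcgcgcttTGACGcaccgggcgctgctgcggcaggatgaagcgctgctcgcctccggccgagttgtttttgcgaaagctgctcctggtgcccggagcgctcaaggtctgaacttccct
On both strands, TGACG occurs once in this window and in 0 places in those of Adcy2 and Adcy5, the other members with a window in the table; 21.2% of all 33469 windows of this length hold it. The GC box GGGCGG occurs in 0 places for Adcy9, 3 for Adcy2 and 4 for Adcy5, and in 33.1% of all windows. The full element TGACGTCA, which contains this core, is in none of these 3 windows and in 1.83% of all. Bases G and C make up 74.0% of the Adcy9 window, 72.7% of that of Adcy2 and 70.7% of that of Adcy5.

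Adcy9 was higher in HAD2 rats than in LAD2 rats. Its log2 level in HAD2 ran between 8.21 and 8.64 with a median of 8.37, against 7.11 to 8.12 with a median of 7.82 in LAD2. Every HAD2 array lay above every LAD2 array, and the lowest of all was LAD2 17. The mean was 8.39 ± 0.13 in the 10 HAD2 arrays, against 7.75 ± 0.27 in the 10 LAD2 arrays (SD), a difference of 0.63 (SE 0.09, 95% interval 0.45 to 0.82), or 1.55-fold, with limma adjusted p = 5.9e-05. Of the 8 member probe sets this was the 1 past the threshold in this pair; 4.09% of all 31042 probe sets passed. Groups did not overlap for 1 of 8 member probe sets and for 0.86% of all; in the other pairs they overlapped for all 8, where 0.0193% of all probe sets in HAD1, 0.00966% in sP and 0% in P and AA rats did not. The difference in size exceeded that of 98.8% of probe sets. It was 0.56 without LAD2 17, 0.67 with array weights and 0.62 with the GAPDH ratio as a covariate. The value is the hybridisation signal of 1 probe set: no second probe set bears on it, and the probes' sequences were not used here, so whether they match both lines equally was not tested.

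**Figure D1:**
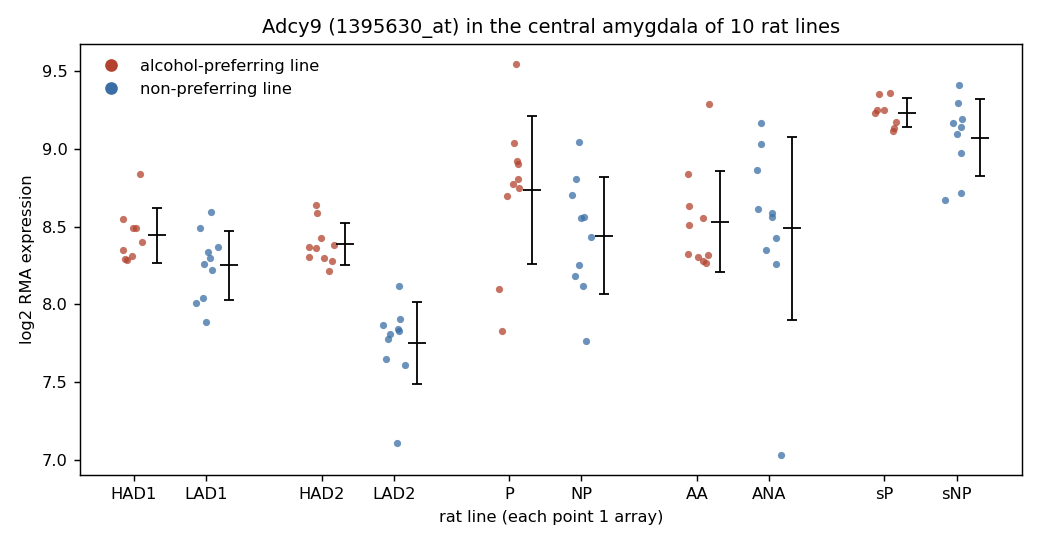
Log2 RMA level of Adcy9 on each array (points) in the 10 lines along the horizontal axis, preferring lines in red and non-preferring lines in blue, with the mean and SD of each line in black. The HAD2 points lie between 8.21 and 8.64, all above the LAD2 points, while the lines of the other 4 pairs overlap.

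In HAD1 rats Adcy9 was 8.28 to 8.84 with a median of 8.40, against 7.89 to 8.59 with a median of 8.28 in LAD1. All 9 HAD1 arrays lay above the LAD1 mean and 8 of 10 LAD1 arrays below the HAD1 mean, and the groups overlapped. The difference was 0.19 (SE 0.09, 95% interval 0.01 to 0.38) and did not pass (adjusted p = 0.426). It was 0.20 without HAD1 28 and LAD1 37 and 0.17 with LAD1 36 counted as HAD1. With each array left out in turn it ran between 0.14 and 0.23 and did not pass.

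In P rats the level was 7.83 to 9.55 with a median of 8.79, against 7.76 to 9.04 with a median of 8.50 in NP. The 2 lowest P arrays were P 1 at 7.83 and P 9 at 8.10, and the highest NP array was NP 9 at 9.04, all 3 among the arrays that lay with the other line, as did NP 1 at 8.25. The difference was 0.29 (SE 0.18, 95% interval -0.08 to 0.67, adjusted p = 1.0) as labelled and 0.54 (SE 0.14, adjusted p = 0.082) without these 4 arrays. Removing such arrays can by itself widen a gap between lines, and neither value passed the test.

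AA rats had 8.26 to 9.29 with a median of 8.42, against 7.03 to 9.17 with a median of 8.57 in ANA. The groups overlapped over most of their range, and the mean and the median pointed opposite ways. The difference of 0.04 (SE 0.20, 95% interval -0.36 to 0.45) turned on single arrays: it was -0.12 without ANA 6, at 7.03, and -0.04 without AA 19, at 9.29, and -0.02 with array weights. It was 0.02 (SE 0.22) without the 4 arrays that lay with the other line, AA 19 among them. The interval spans the size seen in HAD1, sP and P rats, so it does not show that AA and ANA were alike.

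sP rats had 9.12 to 9.36 with a median of 9.24, against 8.67 to 9.41 with a median of 9.14 in sNP. All 8 sP arrays lay above the sNP mean, and 7 of 9 sNP arrays lay below the sP mean, with overlap. The difference was 0.16 (SE 0.09, 95% interval -0.02 to 0.34, adjusted p = 1.0), was 0.18 without sP 2 and sNP 2, was 0.17 without the 4 arrays that lay with the other line, and was 0.0044 with the GAPDH ratio as a covariate. The log2 GAPDH ratio was 0.30 ± 0.03 in sP (n = 8) and 0.37 ± 0.05 in sNP (SD, n = 9).

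Averaged over the 5 pairs with equal weight, Adcy9 was 0.27 higher in preferring lines (SE 0.07, 95% interval 0.13 to 0.40), or 1.2-fold, and passed the limma test with animals as replicates (adjusted p = 0.0204). It was again the 1 member probe set past the threshold, where 0.986% of all probe sets passed. The difference was positive in 5 of 5 pairs, as labelled, which 2.39% of probe sets were. In AA rats it turned negative without ANA 6, without AA 19 and with array weights. Without the 14 arrays that lay with the other line the mean difference was 0.31 (SE 0.07, adjusted p = 0.0012). That removal can by itself widen gaps between lines, and 921 of 31042 probe sets passed after it, against 306 as labelled. The call of Adcy9 was lost without either HAD pair. Its mean difference was 0.17 (limma adjusted p = 0.591) without HAD2 and LAD2 and 0.28 (adjusted p = 0.0714) without HAD1 and LAD1. With the 5 pair differences as the replicates it did not pass the limma test (p = 0.0129, adjusted p = 0.999). An F test of whether the 5 differences varied gave adjusted p = 0.367, against adjusted p = 0.0099 with array weights; 4.54% of probe sets passed the F test.

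The order of the line means of Adcy9 was sP 9.23 ± 0.09, sNP 9.07 ± 0.25, P 8.74 ± 0.48, AA 8.53 ± 0.33, ANA 8.49 ± 0.59, HAD1 8.44 ± 0.18, NP 8.44 ± 0.37, HAD2 8.39 ± 0.13, LAD1 8.25 ± 0.22 and LAD2 7.75 ± 0.27 (SD). The step between LAD1 and LAD2 was the 1 of 9 steps between neighbours in this order that exceeded both SDs. Line pairs differ in the GAPDH ratio, whose part in levels across pairs was not tested.

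Of the 10 nearest measured genes to Adcy9 on chromosome 10, 5 on each side, 0 passed the test in HAD2 or in any other pair, where 3.75% of all genes passed in HAD2, so a count of 0 among 10 is near the background. By the brightest probe set of each, their differences in HAD2 ran between -0.13 and 0.13. Crebbp, the CREB-binding coactivator and the next measured gene on 1 side, stood at 0.03 (SE 0.06, adjusted p = 0.837), and Srl, on the other side, at -0.04 (SE 0.04, adjusted p = 0.644). The dimmer probe sets of Crebbp ran from -0.0075 to 0.21 in HAD2, and none passed. The highest of them had SE 0.09 and limma adjusted p = 0.213.

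**Figure D2:**
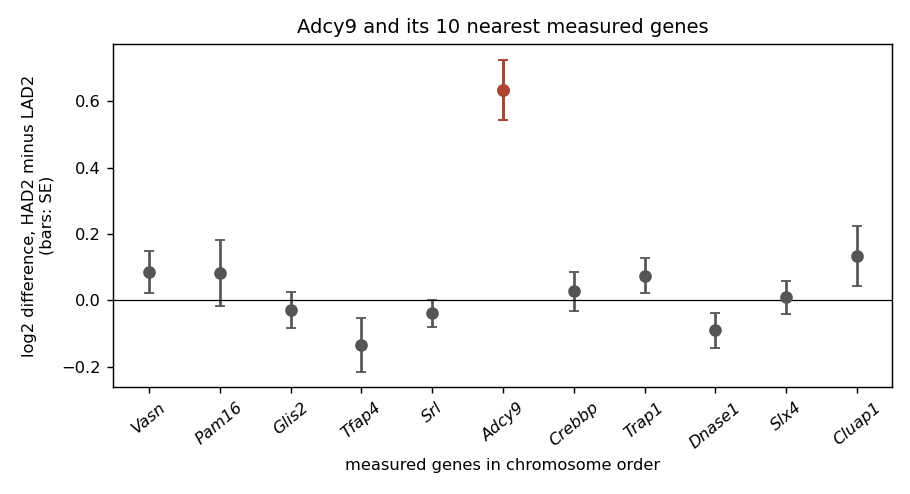
Log2 difference, HAD2 minus LAD2, of Adcy9 (red) and of the 10 nearest measured genes (grey) in chromosome order along the horizontal axis, each by its brightest probe set; bars are standard errors. Adcy9 stands at 0.63 and the 10 other genes between -0.13 and 0.13.

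Marker lists of cell types were set beside Adcy9 in HAD2 and LAD2, since in bulk tissue fewer cells of a type and less RNA per cell cannot be told apart. The mean level per array of the 10 astrocyte markers ran between 11.99 and 12.26 in HAD2 and between 11.97 and 12.22 in LAD2, and that of the 11 central amygdala markers between 9.83 and 10.65 in HAD2 and between 10.28 and 10.88 in LAD2. The 12 microglial markers ran between 8.98 and 9.34 in HAD2 and between 9.02 and 10.04 in LAD2, and the 11 vascular ones between 8.90 and 9.34 in HAD2 and between 8.87 and 9.16 in LAD2. The HAD2 and LAD2 arrays thus overlapped in each of these lists. Striatal markers ran between 8.78 and 9.31 in HAD2 and between 8.82 and 9.39 in LAD2, cortical or basolateral ones between 7.03 and 7.89 in HAD2 and between 7.10 and 7.32 in LAD2, and oligodendrocyte ones between 11.81 and 12.43 in HAD2 and between 11.78 and 12.32 in LAD2. The 7 choroid plexus markers measured ran between 6.57 and 6.79 in HAD2 and between 6.65 and 7.48 in LAD2. In the test, 1 of 10 astrocyte markers rose, 1 of 12 microglial markers rose and 1 fell, 2 of 11 vascular markers rose and 1 fell, 1 of 8 cortical or basolateral markers fell, and 0 of 11 central amygdala, 0 of 11 striatal, 0 of 11 oligodendrocyte and 0 of 7 choroid plexus markers passed, against 3.75% of all 14217 genes. Without regard to the threshold, 0 of 7 choroid plexus markers were positive in HAD2, with differences down to -1.66, and 1 of 11 central amygdala markers was positive (median -0.08). Positive were also 8 of 10 astrocyte, 7 of 11 oligodendrocyte, 6 of 11 vascular, 5 of 8 cortical or basolateral, 3 of 12 microglial (median -0.18) and 2 of 11 striatal markers. Unadjusted p was under 0.05 for 4, 2, 4, 1, 4, 1, 3 and 2 markers of these lists in that order. Of all probe sets 16.4% had such a p. The part of the markers in the Adcy9 difference was not tested.

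None of the other 5 genes passed the test in any pair. Over their 7 probe sets and 5 pairs, 0 of 35 comparisons were called by limma, 1 had an unadjusted p under 0.05, and 17 differences were positive. The differences ran between -0.22 and 0.26, with the lowest adjusted p at 0.307. No bound of their 95% intervals lay farther from 0 than 0.57. The median over all 8 member probe sets was between -0.015 and 0.049 in the 5 pairs, against -0.011 to 0.0061 over all probe sets. In HAD1 the share of all probe sets past the test was 0.963%, and in P, AA and sP rats 0 probe sets of any gene passed, with unadjusted p under 0.05 in 4.91%, 4.92% and 4.32% of probe sets (1523, 1528 and 1341), beside 16.4% in HAD2.

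**Figure D3:**
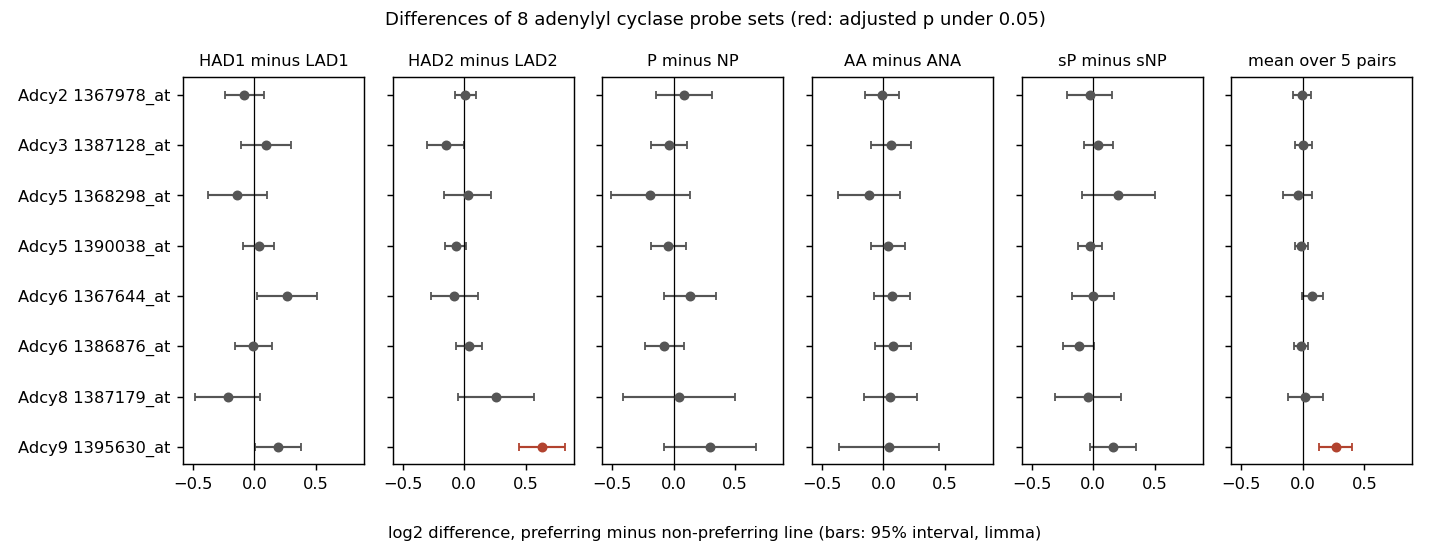
Log2 difference, preferring minus non-preferring line, of each of the 8 probe sets (rows) in the 5 pairs and in their mean (panels); bars are 95% intervals and red marks an adjusted p under 0.05. Adcy9 in HAD2 at 0.63 and in the mean at 0.27 are marked, and the other differences lie between -0.22 and 0.29.

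Adcy8, a cyclase of neurons that calcium and calmodulin activate, leaned opposite ways in the HAD pairs without passing the test. Its log2 level in HAD2 was 9.002 to 10.20 with a median of 9.57, against 8.95 to 9.93 with a median of 9.30 in LAD2. In HAD1 it was 8.84 to 9.57 with a median of 9.41, against 9.06 to 10.06 with a median of 9.57 in LAD1. The groups overlapped in both pairs, with 8 of 10 HAD2 arrays above the LAD2 mean and 0 of 9 HAD1 arrays above the LAD1 mean. The differences were 0.26 in HAD2 (SE 0.15, adjusted p = 0.389) and -0.22 in HAD1 (SE 0.13, adjusted p = 0.561), in P, AA and sP rats they were 0.04 (SE 0.22), 0.05 (SE 0.10) and -0.04 (SE 0.13), and the F test of their variation gave adjusted p = 0.742. Line means were 9.31 to 9.59 in the HAD and LAD lines and 8.13 to 8.28 in the other 6 lines. The GAPDH ratio split the same lines, and its part in these levels was not tested.

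Adcy3, best known as the cyclase of olfactory neurons and of neuronal primary cilia, was 10.07 to 10.64 with a median of 10.44 in HAD2, against 10.28 to 10.72 with a median of 10.57 in LAD2. The groups overlapped, with 3 HAD2 arrays below the lowest LAD2 array. The difference of -0.15 (SE 0.07, 95% interval -0.30 to 0.00045) had the lowest adjusted p of the 5 genes and did not pass (adjusted p = 0.307). In HAD1, P, AA and sP rats the differences were 0.10, -0.04, 0.06 and 0.04 (SE 0.06 to 0.10). The line means ran between 10.28 and 10.56 in the HAD and LAD lines and between 9.93 and 10.14 in the others, and no step between neighbours in their order exceeded both SDs. Here too the GAPDH ratio split the same lines, and its part was not tested.

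Adcy2, the beta-gamma-stimulated member, was not called in any pair. Its difference was 0.08 in P (SE 0.11), -0.01 in AA (SE 0.07), -0.03 in sP (SE 0.09), 0.01 in HAD2 (SE 0.04) and -0.08 in HAD1 rats (SE 0.08). The narrowest interval was that of HAD2, -0.08 to 0.10, where the level was 12.42 to 12.75 with a median of 12.57, against 12.46 to 12.67 with a median of 12.54 in LAD2. The groups overlapped throughout. The line means fell into a higher block, 12.56 to 12.64 in the HAD and LAD lines, and a lower one, 11.39 to 11.70 in the other 6 lines. These blocks are also those of the GAPDH ratio, whose part was not tested.

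Adcy5 and Adcy6 are close relatives that inhibitory G proteins and calcium hold down; Adcy5 is the main cyclase of the striatum. The brighter Adcy5 probe set was at 9.68 to 10.65 with a median of 10.01 in sP, against 9.59 to 10.52 with a median of 9.75 in sNP. In P it was 9.45 to 10.39 with a median of 9.63, against 9.24 to 10.49 with a median of 9.95 in NP. The groups overlapped in both pairs, and the differences were 0.20 in sP (SE 0.14, adjusted p = 1.0) and -0.19 in P rats (SE 0.16, adjusted p = 1.0). In AA, HAD1 and HAD2 rats they were -0.12 (SE 0.12), -0.14 (SE 0.11) and 0.03 (SE 0.09). Without the arrays that lay with the other line they were 0.27 in sP, -0.31 in P, -0.22 in AA and -0.15 in HAD1 rats, and none passed. In sP rats the difference was 0.01 with the GAPDH ratio as a covariate, and 0.12 without sP 5. The F test of variation gave adjusted p = 0.685.

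The level of Adcy5 also split by line pair, with means of 7.71 to 7.97 in the HAD and LAD lines and 9.72 to 10.09 in the other 6 lines. The lowest line of the upper block, AA at 9.72 ± 0.37, stood above the highest of the lower block, LAD1 at 7.97 ± 0.18, by more than both SDs. The GAPDH ratio split the same lines; its part was not tested. The dimmer probe set had line means of 4.605 to 5.26, with the HAD and LAD lines at the upper end, opposite to the brighter one. Its mean level exceeded that of only 7.89% of all probe sets. Whether it read above background was not tested, as no detection calls were used. Its differences ran between -0.07 in HAD2 and 0.04 in AA rats. The deviations of the 2 probe sets from their line means had r = 0.07 over 96 arrays.

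Adcy6 had the 1 comparison of these 5 genes with an unadjusted p under 0.05, against 11% of all probe sets in that pair. Its brighter probe set was at 9.80 to 10.60 with a median of 10.29 in HAD1, against 9.73 to 10.48 with a median of 9.98 in LAD1. Of 9 HAD1 arrays 3 lay above every LAD1 array, and of 10 LAD1 arrays 2 lay below every HAD1 array. The difference was 0.26 (SE 0.12, p = 0.0325, adjusted p = 0.392 by limma), and 0.25 without HAD1 28 and LAD1 37. In HAD2, P, AA and sP rats it was -0.08, 0.13, 0.07 and -0.0017 (SE 0.07 to 0.10), and the mean over the 5 pairs was 0.08 (SE 0.04, adjusted p = 0.719). The dimmer probe set was at -0.0095 in HAD1 (SE 0.07), and the 2 probe sets had r = -0.01 over 96 arrays. The dimmer one had a mean level above that of 26.2% of all probe sets, and its detection was not tested. Its largest difference was -0.12 in sP rats (SE 0.06, adjusted p = 1.0).

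**Figure D4:**
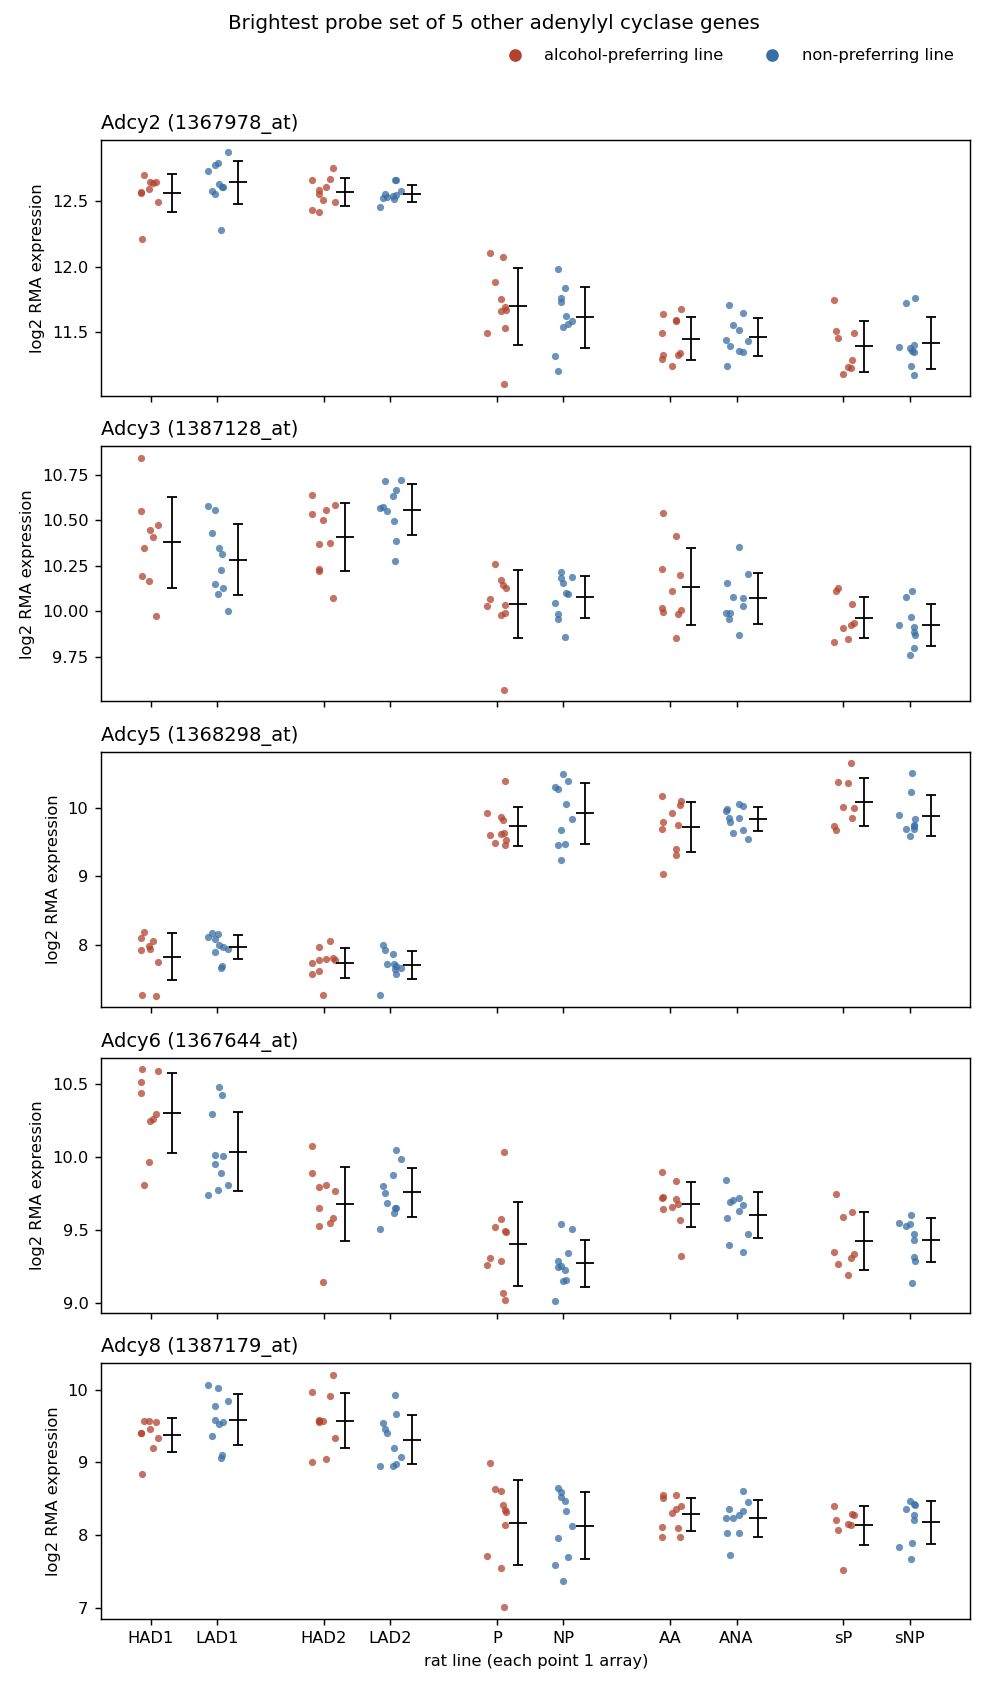
Log2 RMA level on each array (points) of the brightest probe set of Adcy2, Adcy3, Adcy5, Adcy6 and Adcy8 (panels, each with its own vertical axis) in the 10 lines along the horizontal axis, preferring lines in red and non-preferring lines in blue, with mean and SD in black. Lines of a pair overlap in every panel, and the line means of Adcy5 are 7.71 to 7.97 in the HAD and LAD lines against 9.72 to 10.09 in the others.

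Among arrays of the same line, Adcy5 went with markers of striatal neurons. Of 12 such markers 11 were measured. Deviations of Adcy5 from its line means and those of the mean of these markers had Pearson's r = 0.77 and Spearman's rho = 0.74 over 96 arrays. Each had a two-sided permutation p = 1e-05, the smallest that 100000 permutations within lines can give, and adjusted p = 9.6e-05 over 48 relations of the 6 genes with 8 marker lists. Without AA 19 and sNP 6, the arrays farthest out in the markers, r was 0.75. Within pairs it was 0.48 in HAD1 and LAD1, 0.51 in HAD2 and LAD2, 0.82 in P and NP, 0.90 in AA and ANA and 0.89 in sP and sNP.

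Between lines, the median of the striatal markers had the sign of Adcy5 in sP, P, AA and HAD1 rats and the opposite sign in HAD2 rats. In sP rats 11 of 11 were positive with a median of 0.29, beside Adcy5 at 0.20, which was 0.01 with the GAPDH ratio as a covariate. In P rats 0 of 11 were positive with a median of -0.16, beside Adcy5 at -0.19, and in AA rats 1 of 11 with a median of -0.23, beside Adcy5 at -0.12. In HAD1 rats 5 of 11 were positive with a median of -0.06, beside Adcy5 at -0.14. In HAD2 rats 2 of 11 were positive with a median of -0.11, the opposite sign to Adcy5 at 0.03. No striatal marker passed the test in any pair. The mean of the 11 per array ran between 9.93 and 11.19 in sP and between 9.93 and 11.27 in sNP, and between 9.80 and 11.11 in P and between 9.64 and 11.35 in NP. Their part in the Adcy5 differences was not tested.

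**Figure D5:**
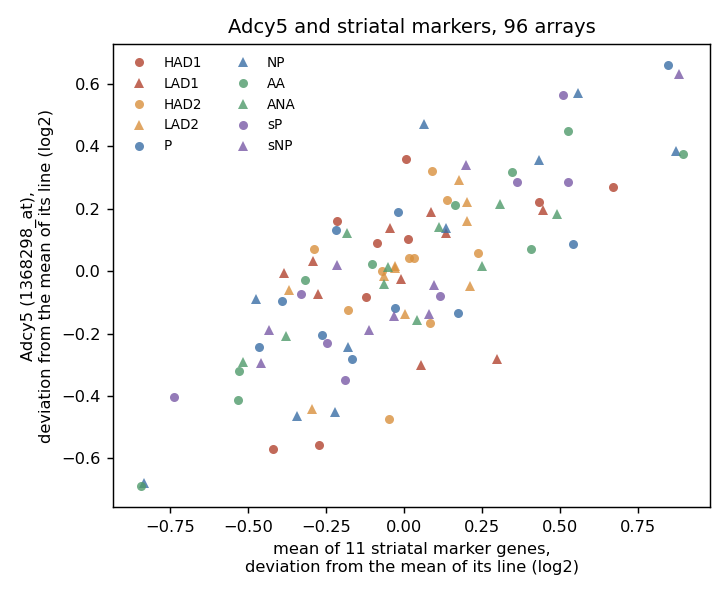
Deviation of Adcy5 from the mean of its line (vertical, log2) against that of the mean of 11 striatal marker genes (horizontal, log2) on 96 arrays; colours mark line pairs, circles preferring and triangles non-preferring lines. Arrays high in the markers are high in Adcy5, with r = 0.77.

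Of the 48 relations, 24 passed by Pearson's r after adjustment, and they differed by gene. Adcy8 was higher on arrays with more vascular (r = 0.55, rho = 0.57), oligodendrocyte (r = 0.51, rho = 0.52), astrocyte (r = 0.49, rho = 0.52) and microglial markers (r = 0.38, rho = 0.41), and r had this sign within all 5 pairs for each list. Adcy2 had r = 0.42 (rho = 0.46) with vascular and r = 0.38 (rho = 0.38) with astrocyte markers. Within pairs its vascular r ran from 0.12 in sP and sNP to 0.71 in HAD1 and LAD1. The astrocyte r of Adcy2 ran from 0.04 in AA and ANA to 0.85 in HAD1 and LAD1. Adcy3 ran the other way, with r = 0.48 (rho = 0.54) for central amygdala neuron markers, r = -0.40 (rho = -0.47) for oligodendrocyte and r = -0.36 (rho = -0.39) for vascular markers. Without the 2 arrays farthest out in each list, r was 0.45 to 0.53 for the lists of Adcy8. It was 0.42 and 0.33 for those of Adcy2, and 0.46, -0.43 and -0.36 for those of Adcy3. Permutation p values for these relations ranged up to 4.2e-04 before and 0.0014 after adjustment (n = 96). Adcy2 also had r = -0.43 (rho = -0.22, permutation p = 6e-04 for r, adjusted p = 0.0019) with choroid plexus markers. This r was -0.28 without P 5 and P 2, and 0.21 within sP and sNP. Adcy2 passed too with oligodendrocyte (r = 0.33) and microglial markers (r = 0.30). For Adcy3, astrocyte (r = -0.32) and microglial markers (r = -0.31) also passed. Adcy8 passed with central amygdala neuron (r = -0.28), cortical or basolateral (r = -0.31) and choroid plexus markers (r = -0.37). The cortical or basolateral and choroid plexus r of Adcy8 differed in sign within pairs. Permutation p for r in these added relations was up to 0.0166, adjusted p up to 0.0336.

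Adcy6 had r = -0.38 (rho = -0.34, permutation p = 1.1e-04 for r, adjusted p = 7.2e-04) with striatal markers, but within pairs r was 0.09 in HAD1 and LAD1, 0.48 in HAD2 and LAD2, -0.76 in P and NP, -0.60 in AA and ANA and -0.80 in sP and sNP, so the relation did not hold in the HAD and LAD pairs. Adcy6 also had r = 0.44 (rho = 0.40, permutation p = 1e-05 for r, adjusted p = 9.6e-05) with choroid plexus markers, and r = 0.31 without P 5 and P 2. Further relations of Adcy6 were r = -0.38 (rho = -0.42) with vascular and r = -0.37 (rho = -0.47) with microglial markers. It also had r = 0.35 (rho = 0.40) with central amygdala neuron and r = -0.25 (rho = -0.33) with oligodendrocyte markers. Each of these further relations kept its sign within all 5 pairs. Their permutation p for r was up to 0.0168, adjusted p up to 0.0336. For Adcy9, 0 of 8 relations passed, with r between -0.21 for microglial and 0.24 for striatal markers. Within pairs its r differed in sign. For striatal markers it ran from -0.53 in HAD2 and LAD2 to 0.51 in sP and sNP. For microglial markers it ran from -0.62 in P and NP to 0.16 in HAD2 and LAD2, and for astrocyte markers from -0.66 in AA and ANA to 0.18 in P and NP.

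The members varied together in few cases. Of the 28 pairs of probe sets, Adcy2 and Adcy8 had the highest correlation of deviations from line means, r = 0.63 over 96 arrays, and the next highest was 0.19. The lowest was -0.35, between Adcy8 and the brighter probe set of Adcy6. Adcy9 had r between -0.13 and 0.09 with each of the other 7 probe sets.

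The 3 genes whose deviations were most like those of each member, over 96 arrays from the same libraries, are given as a description. They were Dmxl1 (r = 0.65), Purg (0.60) and R3hdm2 (0.54) for Adcy9, Shd (0.87), Adgra1 (0.85) and Agt (0.84) for Adcy8, and Cadps (0.78), Npas1 (0.76) and Reep1 (0.76) for Adcy2. For Adcy3 they were Slc35f4 (0.74), Myt1l (0.73) and Loricrin (0.71). For Adcy5 they were Pde1b (0.83), Neu2 (0.83) and Ptpn5 (0.81), and for Adcy6 Fhl1 (0.67), Polr2m (0.65) and Limk2 (0.65). Within single pairs r for Adcy9 was 0.10 to 0.75 with Dmxl1, 0.02 to 0.89 with Purg and -0.01 to 0.85 with R3hdm2. For Adcy8 it was 0.69 to 0.93 with Shd, 0.75 to 0.92 with Adgra1 and 0.73 to 0.90 with Agt. For Adcy6 with Polr2m it was 0.06 to 0.82.

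Around the cyclases, 57 of 62 listed genes of cyclic AMP signalling were measured. In HAD2 rats 1 of 57 fell and 0 rose, where 3.75% of all genes passed and 1.6% fell. The 1 that fell was Ric8a, a chaperone and exchange factor of G protein alpha subunits. Its level in HAD2 was 9.66 to 10.33 with a median of 10.15, against 10.17 to 10.81 with a median of 10.55 in LAD2. The groups overlapped. Ric8a averaged 10.08 ± 0.23 over HAD2 arrays, against 10.52 ± 0.20 over LAD2 arrays (SD), and the difference was -0.44 (SE 0.09, limma adjusted p = 0.0044); in the other 4 pairs it lay between -0.08 and 0.05.

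No pathway gene passed in HAD1, where 0.682% of all genes did, nor in P, AA and sP rats or in the mean over pairs, where 0.816% did. With an unadjusted p under 0.05 there were 7 of 57 in HAD1, 10 in HAD2, 2 in P, 1 in AA and 1 in sP rats. The shares of all probe sets were 11%, 16.4%, 4.91%, 4.92% and 4.32% in that order. Such shares were not taken by gene, while each pathway gene was counted by its brightest probe set. Against the shares of probe sets, these counts are near or below the background. The 2 stimulatory alpha subunits Gnas and Gnal differed by -0.18 to 0.14 over the pairs, and the 4 inhibitory ones measured by -0.12 to 0.24. The 9 kinase A subunits and inhibitors lay between -0.24 and 0.23, and the 14 phosphodiesterases, which break cyclic AMP or cyclic GMP down, between -0.27 and 0.38. The other cyclases measured, Adcy4 and Adcy10, lay between -0.07 and 0.20. Anchoring proteins, 10 in all, lay between -0.83 and 0.84, and the 8 kinase A targets and CREB coactivators between -0.50 and 0.37, with 7 of 8 positive in HAD2, 7 in sP and 2 each in HAD1, P and AA rats. The median over the 57 genes was between -0.019 and 0.01 in the 5 pairs.

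Akap5, an anchoring protein that holds protein kinase A and cyclases at synapses, is named after its values were seen. It stood at 0.84 in HAD2 (SE 0.24, adjusted p = 0.0501) and at -0.83 in HAD1 rats (SE 0.29, adjusted p = 0.226). Its mean was 6.89 ± 0.83 in HAD2 and 6.05 ± 0.21 in LAD2, and 7.15 ± 0.59 in HAD1 and 7.98 ± 0.82 in LAD1 (SD). Neither passed, and in P, AA and sP rats it was at -0.30, -0.35 and -0.08.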

How the data were processed

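The authors deposited log2 values per probe set, made with RMA per the submitters' processing notes. Neither the RMA version nor the set of arrays it was run on together is stated there. Per the labels, RNA was taken up in Trizol, cleaned on RNeasy columns, and 25 ng went through a 2-cycle biotin labelling. The 57 control probe sets were left out. Of 31042 probe sets, 20826 named 1 symbol, 436 several and 9780 none; a gene stands for its brightest single-symbol probe set. Groups came from titles. No detection calls were used. Precision is limited by how many arrays a line has.

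Each pair was fitted on its own arrays in limma 3.58.1 (R 4.3.3) with an intensity trend, two-sided, with Benjamini-Hochberg adjustment over all probe sets and a threshold of 0.05. A fit of all 10 lines gave the mean over pairs and the F test. The code was tested on simulated data. Array placement used 100 probe sets per score. Alternatives were array weights, variance moderation, brighter probe sets, 1 probe set per gene, a GAPDH covariate, quantile scaling, a replicate block, and leaving out arrays or pairs.

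The members, gene lists and tests were chosen with earlier results of these data known. By rule, named genes are all members, called pathway genes (at most 3 per pair and direction), the 3 most alike genes per member, and neighbours called where the member was. Outside the rule, Crebbp and Srl were named for their place, Gnas, Gnal, Adcy4 and Adcy10 to spell out small groups, markers not measured to complete a list, and Akap5 for its values; all were chosen after values were seen. Sequences are from RefSeq (GRCr8).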

Additional observations from a re-analysis of the deposited data

Results flagged for a closer look

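Single arrays stood apart from their line by Dixon's test in 8 of 80 combinations of a probe set and a line; chance gives about 1 in 20. P 2, at 10.39 for the brighter Adcy5 probe set with the next P array at 9.92, was also the P array with the highest mean of 11 striatal markers, 11.11 against 9.80 to 10.81 in the others; it was also the highest for vascular markers, at 9.51, and the lowest for cortical or basolateral, at 6.84, and choroid plexus markers, at 6.31. P 5, at 9.57 for Adcy3 with the next at 9.98, had choroid plexus markers at a mean of 10.43, against 6.31 to 6.81 on the other P arrays; it was also the lowest P array for Adcy2, at 11.11, and Adcy8, at 7.01, and the highest for Adcy6, at 10.03. sP 4, at 7.51 for Adcy8 with the next at 8.07, had cortical or basolateral markers at 8.13 against 6.58 to 6.90, and oligodendrocyte markers at 11.92 against 12.23 to 13.03; its astrocyte mean of 12.04 was the lowest of sP. HAD1 29, at 12.21 for Adcy2 with the next at 12.49, had the lowest astrocyte and vascular marker means of HAD1.

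Adcy9 stood apart on 3 arrays. ANA 6 was at 7.03 with the next ANA array at 8.26, and it had the highest astrocyte marker mean of ANA, 12.44 against 12.04 to 12.28. It was also the highest ANA array for central amygdala, at 11.38, and microglial markers, at 9.50, and the lowest for striatal, at 9.68, and vascular markers, at 8.86, so 5 of its 8 list means lay outside those of the other ANA arrays. LAD2 17 was at 7.11 with the next at 7.61, and none of its 8 marker list means lay outside those of the other LAD2 arrays. HAD1 30 was at 8.84 with the next at 8.55, and 7 of its 8 marker list means lay outside those of the other HAD1 arrays. NP 1 was at 5.41 for the dimmer Adcy5 probe set, with the next at 5.20, and was the lowest NP array for striatal, at 9.64, and the highest for astrocyte markers, at 12.41. The part of the markers in these values was not tested.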

How the results depend on the processing

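Of 601 values under alternatives other than single arrays left out, 565 kept their direction and their side of the threshold. The call of Adcy9 in HAD2 was kept under all of them, with adjusted p up to 0.0018, and with each array left out (1 member called each time, adjusted p up to 1.9e-04). The mean of Adcy9 over pairs fell short, with 0 members called, without HAD1 and LAD1 (0.28), without HAD2 and LAD2 (0.17) and with pairs as replicates (0.27); with each array left out 1 member was called. The F test called 1 member, Adcy9, with array weights (F = 5.34). Pathway calls in HAD2 were 4 with array weights, 3 with quantile scaling, and 2 each without an intensity trend, in the brighter 50%, with the GAPDH covariate and with all lines in 1 fit; with single arrays left out they were 1 to 3, 3 without LAD2 11 and 2 without HAD2 2, 3, 4, 5, 6 or 9 or LAD2 13 or 20. In HAD1 they were 1 with array weights, 1 without the arrays that lay with the other line and 2 with all lines in 1 fit, and in AA 1 without such arrays. The cause of these shifts was not tested.

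Reversals concerned differences that did not pass the test; brighter and dimmer mark the 2 probe sets of a gene. With array weights they were -0.0020 for Adcy2 in HAD2, -0.0233 for Adcy9 in AA and 0.0015 for brighter Adcy6 in sP. With the GAPDH covariate they were 0.0059 for Adcy2 in AA, 0.1088 for brighter Adcy6, -0.0055 for Adcy3 and 0.0274 for Adcy8 in sP, and -0.0053 for the mean of Adcy3. With LAD1 36 as HAD1 they were 0.0150 for dimmer Adcy6 in HAD1 and -0.0064 for the mean of Adcy3, and without arrays that lay with the other line 0.0113 for dimmer Adcy5 in sP. Means over pairs reversed without HAD1 and LAD1 for Adcy2 (0.0129) and Adcy3 (-0.0213), without HAD2 and LAD2 for Adcy8 (-0.0408), without AA and ANA for Adcy3 (-0.0135), and without sP and sNP for Adcy3 (-0.0077) and dimmer Adcy6 (0.0079). With single arrays left out, signs also changed within -0.0417 to 0.0240 for dimmer Adcy6 in HAD1, -0.0098 to 0.0274 for Adcy2 and -0.0199 to 0.0816 for brighter Adcy5 in HAD2, -0.0657 to 0.0110 for Adcy3 and -0.0498 to 0.1701 for Adcy8 in P, -0.0379 to 0.0136 for Adcy2, -0.0021 to 0.0959 for Adcy8 and -0.1182 to 0.1192 for Adcy9 in AA, -0.0471 to 0.0317 for brighter Adcy6, -0.0793 to 0.0137 for Adcy2 and -0.1037 to 0.0478 for Adcy8 in sP, and -0.0160 to 0.0072 for Adcy2 and -0.0096 to 0.0124 for Adcy3 in the mean; leaving out each array for the mean was chosen after seeing the data.

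P and NP share animal numbers, as do sP and sNP, and the main fits did not pair arrays by them. Correlations of same-numbered arrays were -0.11 to 0.50 and -0.18 to 0.77, with the own number best for 2 of 10 and 1 of 8. The value of 0.77 is that of sP 2 and sNP 2, which were nearly identical. Whether the numbers stand for a pairing was not tested further. With the number as a replicate block Adcy9 was 0.29 (SE 0.19) in P and 0.17 (SE 0.10) in sP, brighter Adcy6 in sP was 0.0034, and no member's call changed.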
